A study of Mus musculus with 4 samples.

Results

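The genes described here are 10 members of the Notch pathway, taken by symbol from the 32285 genes of the count tables: the ligands Dll1, Dll4, Jag1 and Jag2, the receptors Notch1, Notch2 and Notch3, and the target genes Hey1, Hey2 and Hes1. Each symbol matched 1 row. RNA was counted in single cells of the pharyngeal region and heart of mouse embryos at E9.5. The cells were GFP-positive, DAPI-negative sorted cells of the Tbx1-Cre lineage. The control embryos (cHet) were Tbx1Cre/+ with 1 floxed Kmt2d allele (Kmt2d F/+), the mutant embryos (cKO) were Tbx1Cre/+ with both alleles floxed (Kmt2d F/F), and both carried GFP F/+. The labels give the strain as outbred SwissWebster, and the study's methods describe a mixed C57BL/6 and Swiss Webster background for its mice in general. Kmt2d encodes a histone H3 lysine 4 methyltransferase. The Cre is a knock-in, so both genotypes are heterozygous for Tbx1, and no embryos without Cre were analysed here. Each genotype had 2 libraries. The Rep1 libraries were pools of 4 embryos made with a Next GEM kit, while those of Rep2 were pools of 3 made with a GEM-X kit. Single embryos cannot be separated within a pool, nor can the effect of the kit be told apart from that of the replicate.

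Notch receptors are membrane proteins that are activated by ligands of the Delta and Jagged families on a neighbouring cell. The receptor is then cut, and its intracellular part enters the nucleus, where it joins the DNA-binding protein RBPJ and switches on target genes such as Hey1, Hey2 and Hes1, which encode transcriptional repressors. In the embryo the pathway is known for arterial identity in endothelium, for the choice between neuron and progenitor, for the sensory patches of the inner ear and for the heart outflow tract.

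In Rep1, 5869 cHet and 6291 cKO cells were kept, followed by 9350 cHet and 11938 cKO cells in Rep2, 33448 in all, with medians of 17240.5 to 22972 unique molecular identifiers (UMIs) per cell. The libraries of Rep1 shared 12 cell barcodes and those of Rep2 shared 41, and no other pair shared any. The cells formed 21 clusters, of which 8 were not named because fewer than 3 markers of a type passed. The group called mesenchyme is 1 cluster of 1411 cells that passed Tbx18, Twist2 and Foxc2. Mesenchyme was also the best match of the 8 unnamed clusters, with 0 to 2 of its markers passing, so the group is not all of the mesenchyme-like cells. Levels are CPM, the UMIs of a gene summed over the cells of a group in a library and scaled to the same total in each, and 4 values in a row are given in the order of these libraries. Groups were ranked by their mean only among the 24 with at least 20 cells in each library. The arterial-like endothelium and neuronal subclusters 2 and 5 had fewer cells in some libraries and stand outside each rank. Neuronal subcluster 5, with 11, 5, 4 and 0 cells, is not described. Among the members, values of neuronal subcluster 2 are given for Dll4 and Dll1 only. Kmt2d over all cells was at 17.4, 15.2, 23.9 and 21.0 CPM. Its log2 fold change was -0.16 (adjusted p = 0.956, edgeR quasi-likelihood test), and a 3′ count does not show whether the floxed exons were lost, so it does not check the genotype labels.

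Over all cells, 7 of the members were at least 1.21-fold higher in Rep2 than in Rep1 in both genotypes. Hey1 was 2.08-fold higher in Rep2 than in Rep1 in cHet and 2.20-fold higher in cKO. The corresponding ratios were 1.68 and 1.82 for Notch1, 1.71 and 1.67 for Notch3, 1.79 and 2.33 for Jag1, 1.21 and 1.51 for Jag2, 1.26 and 1.53 for Hey2, and 1.88 and 3.37 for Dll4. Dll1 went opposite ways in the genotypes (0.596 and 1.13). Notch2 (1.06 and 1.01) and Hes1 (0.993 and 1.14) had about the same level in both replicates. Levels are therefore compared between groups of cells within a library, and genotypes within a replicate.

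**Figure D1:**
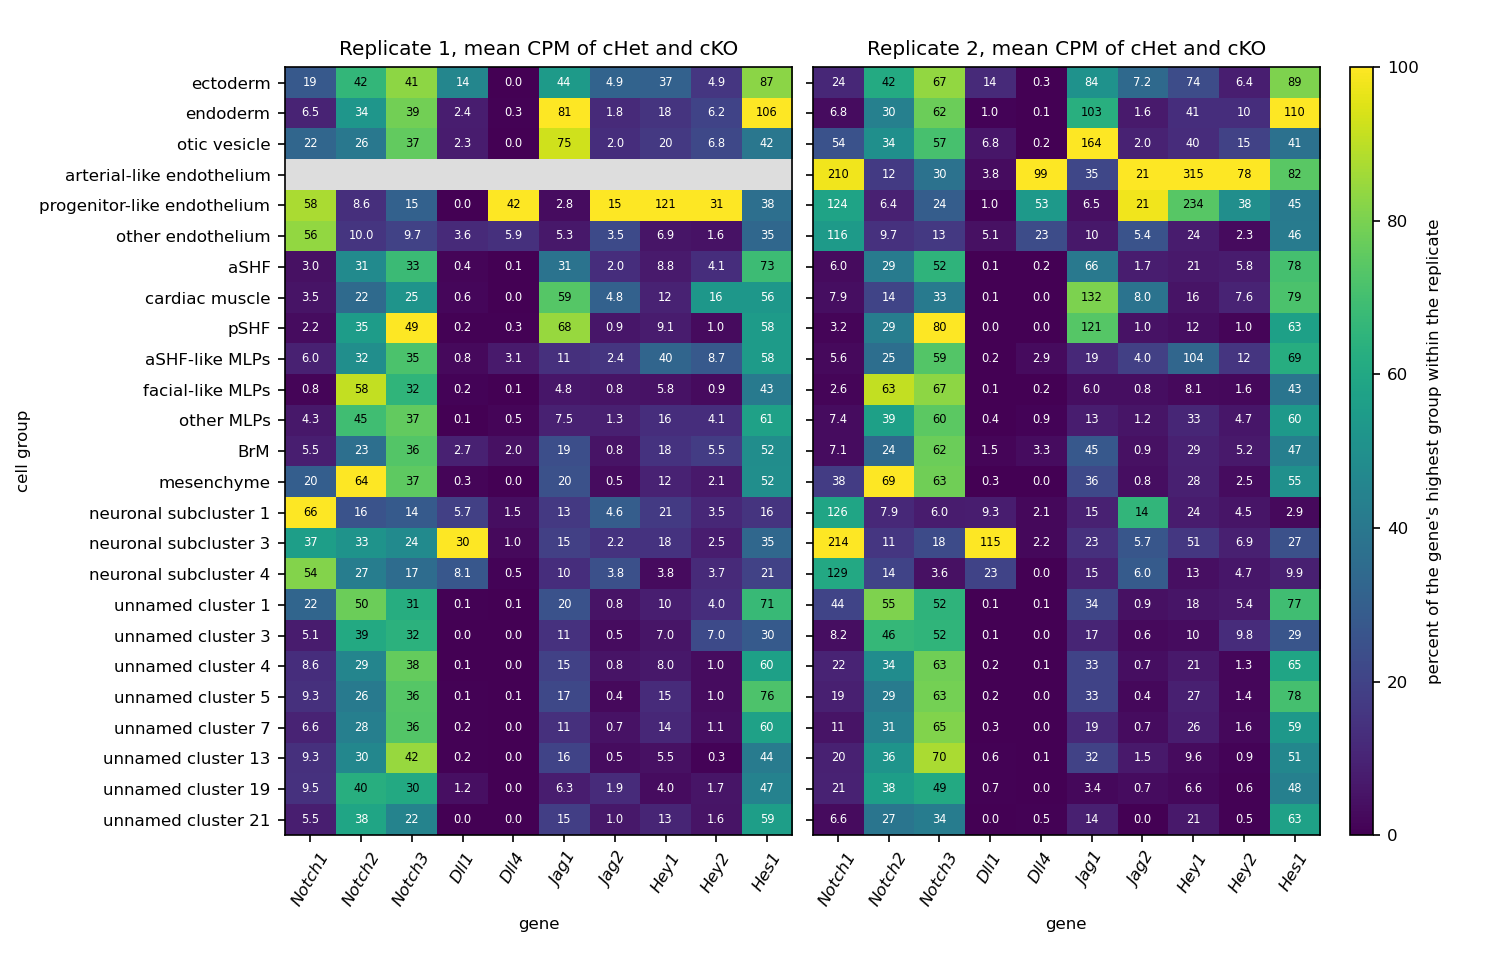
Mean CPM of the cHet and cKO libraries for each member (columns) in each cell group (rows), with Rep1 in the left panel and Rep2 in the right; the color is the percent of the highest group of that gene within the replicate, and grey marks the arterial-like endothelium of Rep1, which had under 20 cells. Notch1, Dll4, Hey1 and Hey2 have their highest Rep2 level, or nearly so, in arterial-like endothelium, and in the same replicate Jag1 has it in the otic vesicle, Notch3 in the pSHF, Notch2 in mesenchyme, Hes1 in endoderm and Dll1 in neuronal subcluster 3.

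Of the Delta ligands, Dll4 (chromosome 2, 119325784 to 119335962, plus strand, GRCm38, GENCODE M21), the ligand of arterial endothelium, was highest in the endothelial subclusters. In progenitor-like endothelium, a subcluster with Etv2, Tal1 and Lmo2, it was at 51.8, 32.5, 45.7 and 60.7 CPM. In the other endothelium it was at 6.99, 4.83, 19.8 and 25.7 CPM, below the progenitor-like cells in 4 of 4 libraries with ranges that did not overlap. The other endothelium joins all endothelial subclusters that were not named. Endothelial subcluster 6 among them (94 cells) passed the progenitor markers Etv2 and Tal1, and its part in these levels was not tested. In arterial-like endothelium, the 2 Rep2 libraries had 97.1 and 100 CPM from 51 and 80 cells.

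The arterial-like endothelium held 16 cells in cHet Rep1 and 2 in cKO Rep1, and its Dll4 values of 35.2 and 99.8 CPM there rest on 9 and 4 UMIs. Outside the endothelium the highest mean level of Dll4 among the ranked groups, 2.98 CPM, was in aSHF-like MLPs (multilineage progenitors with genes of the anterior second heart field, aSHF), with 3.19, 2.96, 2.61 and 3.18 CPM. Neuronal subcluster 2 had 1.91, 1.67, 16.4 and 0 CPM, the last 2 values from 7 and 2 cells with 2 and 0 UMIs. After each cell was thinned to 5000 UMIs, 41.2% of 51 and 40.0% of 80 arterial-like cells of Rep2 (cHet and cKO) had a Dll4 UMI. In facial-like MLPs (with Msx1 and Alx genes of facial mesenchyme), 0 of 234 and 0 of 263 thinned cells of Rep2 had one, which allows a share of up to 1.28% and 1.14% of cells with a UMI at that depth and sets no limit on cells that express the gene. Without thinning the arterial-like shares were 64.7% and 63.8%, at medians of 18439 and 14463 UMIs per cell, and the facial-like shares were 0.427% and 0.380%, at medians of 23392.5 and 19317.

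Dll1 (chromosome 17, 15367354 to 15376872, minus strand), a ligand of neurogenic and sensory fields, was highest among the ranked groups in neuronal subcluster 3. This subcluster was led by Cxcl12, Timp3, Twist1 and Pdgfra and was not given a cell type. Dll1 was at 34.5, 25.1, 101 and 130 CPM there. In neuronal subcluster 2, led by Pax3, Hes5 and Fabp7, it was at 18.5 and 30.6 CPM in Rep1 (84 and 166 cells), below subcluster 3 in cHet and above it in cKO, where subcluster 3 had 20 cells. The Rep2 values of subcluster 2, 73.7 and 318 CPM, rest on 9 and 8 UMIs in 7 and 2 cells. In neuronal subcluster 4 (led by Kctd8, Fgf10 and Rgs13) it was at 4.68, 11.5, 11.9 and 34.6 CPM, so each library was lower but the ranges overlapped. The epithelial group with the highest level was ectoderm, with 18.3, 9.17, 13.7 and 13.7 CPM. Its leading genes within the epithelium included Foxi2, Tfap2a, Neurog2 and Phox2a. With a minimum of 1000 genes per cell and the cells clustered again, the mean of the Rep2 libraries in the cells named ectoderm fell from 13.7 to 1.73 CPM, and endoderm was the highest of the named groups.

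Of the Jagged ligands, Jag1 (chromosome 2, 137081456 to 137116644, minus strand), the ligand of the inner ear's prosensory patches and of the outflow tract, was spread over the epithelia and the heart fields. The otic vesicle had the highest mean, with 82.1, 67.6, 170 and 158 CPM. Cardiac muscle followed with 77.3, 41.7, 126 and 137 CPM, and the posterior second heart field (pSHF) with 63.8, 72.3, 120 and 122 CPM.

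Endoderm had 71.9, 89.4, 113 and 93.7 CPM of Jag1. Within libraries the otic vesicle was above cardiac muscle in 4 of 4, and above the pSHF and endoderm in each library but cKO Rep1. The order of cardiac muscle, the pSHF and endoderm changed between libraries. Facial-like MLPs (3.60 to 6.49 CPM) and progenitor-like endothelium (1.11 to 11.8 CPM) lay below them in every library. The share of thinned cells with a Jag1 UMI was 35.0%, 28.9%, 50.8% and 47.2% in the otic vesicle and 2.69%, 1.23%, 2.14% and 2.28% in facial-like MLPs, so the groups differed in each library at equal depth.

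Jag1 was lower in the aSHF and in muscle progenitors of the pharyngeal arches than in the pSHF. The aSHF had 32.5, 29.2, 71.2 and 61.0 CPM, and the branchiomeric muscle progenitors (BrM) had 21.0, 17.9, 45.7 and 44.6 CPM. Mesenchyme had 18.5, 21.3, 39.4 and 33.1 CPM. The order pSHF, aSHF, BrM held in all 4 libraries. The aSHF cluster passed Isl1, Hand2, Tnc and Rgs5 but also 3 pSHF markers, and the pSHF cluster also passed 5 aSHF markers. Within the endothelium Jag1 was at 35.5 and 33.9 CPM in the Rep2 arterial-like cells, against 9.21 and 11.8 CPM in the other endothelium of the same libraries.

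Jag2 (chromosome 12, 112907819 to 112929776, minus strand), the other Jagged ligand, was highest among the ranked groups in progenitor-like endothelium with 13.3, 17.6, 13.4 and 27.8 CPM (9 to 33 UMIs per library), and was at 25.1 and 17.0 CPM in the Rep2 arterial-like cells. The arterial-like cells were thus above the progenitor-like ones in cHet Rep2 and below them in cKO Rep2. Neuronal subcluster 1 had 5.19, 3.98, 12.2 and 15.5 CPM, lower in each library with overlapping ranges. The other endothelium had 3.32 to 5.44 CPM.

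Among the receptors, Notch1 and the pair of Notch2 and Notch3 were high in different cells. Notch1 (chromosome 2, 26457903 to 26516663, minus strand), the receptor of endothelial and neural progenitor cells, was at 207 and 213 CPM in the Rep2 arterial-like cells. The other endothelium had 55.4, 55.6, 109 and 123 CPM, and progenitor-like endothelium had 54.8, 60.9, 110 and 137 CPM. These last groups overlapped throughout.

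Notch1 was also found in the neuronal cluster. In Rep2, neuronal subclusters 1, 3 and 4 lay below the arterial-like cells of the same library, except subcluster 3 in cKO. Neuronal subcluster 1 passed the neuroblast markers Neurog1, Neurog2, Neurod4 and Eya2. It also passed 3 markers of Phox2-positive sensory neurons, was led by genes that included Nefm, Nefl and Tlx3, and is kept under a number. Its Notch1 levels were 62.3, 70.3, 142 and 110 CPM. Neuronal subcluster 3 had 38.9, 35.5, 195 and 234 CPM, a gap between replicates wider than in progenitor-like or other endothelium (its leading genes included Cxcl12, Timp3, Twist1 and Pdgfra). Neuronal subcluster 4 had 41.0, 67.0, 114 and 144 CPM, overlapping both of these endothelial groups. Of thinned cells, 41.9% and 46.9% of the other endothelium and 51.3% and 42.1% of neuronal subcluster 1 had a Notch1 UMI in Rep2, against 2.56% and 0% of facial-like MLPs (0 of 263 allows up to 1.14% of cells with a UMI at that depth).

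Notch1 was lower in the epithelia and mesenchyme. The otic vesicle had 21.3, 22.2, 56.7 and 50.4 CPM, mesenchyme had 19.3, 20.4, 41.4 and 34.5 CPM, and ectoderm had 17.1 to 25.6 CPM. In pSHF Notch1 was at 1.16 to 3.58 CPM and in facial-like MLPs at 0.472 to 3.71 CPM. Notch1 overlaps the plus-strand genes 0610009E02Rik and Gm13568, and the counting is not stated here to use strand.

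Notch2 (chromosome 3, 98013527 to 98150361, plus strand), a receptor of mesenchymal cells among others, was highest among the ranked groups in mesenchyme with 59.2, 69.4, 72.3 and 65.5 CPM. In facial-like MLPs it was at 57.2, 59.4, 59.7 and 65.5 CPM, with overlapping ranges. In progenitor-like and other endothelium it stayed between 5.06 and 11.5 CPM in all 4 libraries, below the lowest library of the mesenchyme. An unnamed cluster led by Vtn, Cthrc1 and Sparcl1 had 50.1, 49.6, 58.5 and 52.4 CPM, lower than facial-like MLPs in each library. It passed 2 mesenchyme markers. Unnamed clusters 3, 4, 7 and 13, each with 2 such markers as well, had mean levels of 42.5, 31.4, 29.1 and 32.6 CPM. Ectoderm had 40.3, 44.7, 41.4 and 42.5 CPM, and the BrM had 22.3 to 24.7 CPM.

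Notch3 (chromosome 17, 32120820 to 32166852, minus strand), best known as the receptor of vascular smooth muscle, was highest among the ranked groups in the pSHF with 47.6, 50.8, 83.8 and 76.4 CPM. Ectoderm had 38.1, 43.5, 69.4 and 64.9 CPM, and endoderm 40.9, 36.5, 65.0 and 59.2 CPM. Cardiac muscle was lower than these 3 groups in each library, at 25.9, 24.9, 34.7 and 30.5 CPM. The other endothelium had 11.8, 7.47, 14.6 and 12.0 CPM, and neuronal subcluster 1 had 13.8, 14.2, 5.02 and 6.93 CPM. Both were below the lowest pSHF library. The BrM had 33.5, 38.5, 61.5 and 62.8 CPM of Notch3 and the aSHF 35.5, 31.5, 52.8 and 51.3 CPM. Within each library the aSHF lay below ectoderm and endoderm, and the BrM lay below ectoderm. The BrM lay below endoderm in the cHet libraries and above it in the cKO libraries. Notch3 overlaps the plus-strand gene Gm17276, and Dll4 overlaps the minus-strand gene Gm14207.

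**Figure D2:**
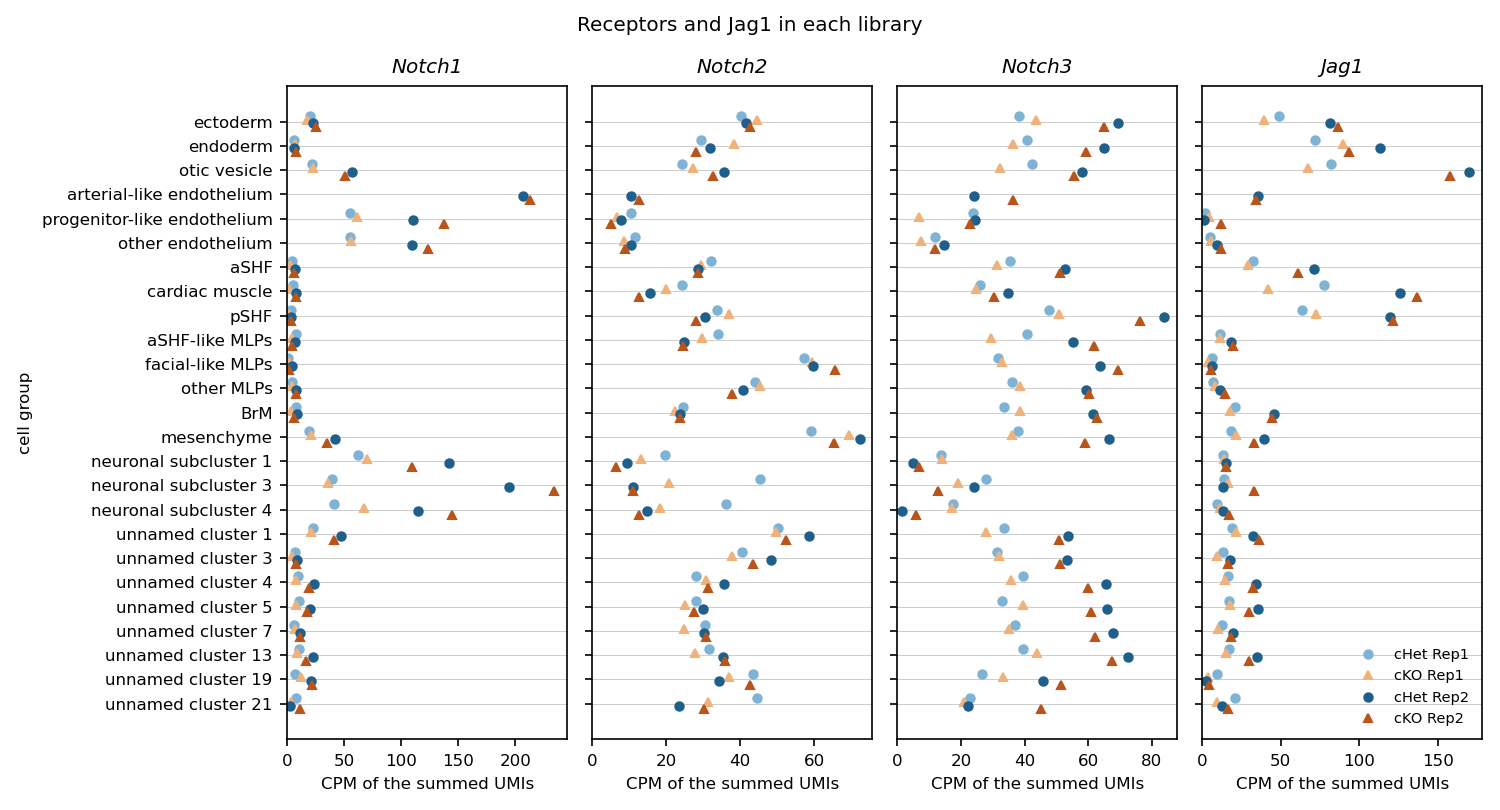
CPM of Notch1, Notch2, Notch3 and Jag1 (x axes, linear) in each cell group (y axis), with 1 point per library; circles are cHet, triangles cKO, light colors Rep1 and dark colors Rep2. Notch1 points of Rep2 lie highest in endothelial and neuronal groups, where those of Notch2 and Notch3 lie low, and in most groups the dark points of Notch1, Notch3 and Jag1 lie to the right of the light ones.

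The target genes Hey1 (chromosome 3, 8663359 to 8667256, minus strand) and Hey2 (chromosome 10, 30832359 to 30842801, minus strand), repressors that act downstream of Notch in arteries and in the heart, were both highest in arterial-like and progenitor-like endothelium, and low in the other endothelium, which also held some Dll4. Hey1 was at 334 and 296 CPM in the Rep2 arterial-like cells and at 113, 130, 211 and 257 CPM in progenitor-like endothelium. The other endothelium had 9.48, 4.39, 21.9 and 25.1 CPM. Progenitor-like cells were above the next group, aSHF-like MLPs with 38.5, 40.7, 99.4 and 109 CPM, in 4 of 4 libraries without overlap.

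Ectoderm was the epithelial group with the most Hey1, at 35.8, 39.1, 59.4 and 88.1 CPM. Other groups with Hey1 were the otic vesicle (16.1, 24.3, 36.7 and 43.2 CPM), mesenchyme (8.90, 14.7, 33.3 and 23.1 CPM) and the aSHF (9.69, 7.84, 21.1 and 21.2 CPM). The otic vesicle was above mesenchyme and the aSHF in each library, and the order of mesenchyme and the aSHF changed between libraries. Facial-like MLPs were at 5.20, 6.30, 10.0 and 6.28 CPM, so the MLP subclusters differed from each other in every library. Of the thinned Rep2 cells, 58.8% (cHet) and 70.0% (cKO) of the arterial-like cells had a Hey1 UMI, against 8.53% and 8.24% in the other endothelium and 4.70% and 2.28% in facial-like MLPs.

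Hey2 was at 73.1 and 82.3 CPM in the Rep2 arterial-like cells and at 31.1, 31.1, 44.6 and 32.0 CPM in progenitor-like endothelium. The other endothelium had 2.37, 0.732, 2.60 and 2.04 CPM. Cardiac muscle, where Hey2 is known from the compact ventricular wall, had 10.4, 22.5, 5.23 and 9.97 CPM, below progenitor-like endothelium in each library and without overlap. The otic vesicle had 7.25, 6.30, 16.0 and 14.7 CPM and aSHF-like MLPs had 8.11, 9.25, 9.96 and 14.3 CPM, both overlapping cardiac muscle. Of thinned Rep2 cells, 27.5% and 33.8% of the arterial-like and 20.5% and 16.1% of the progenitor-like endothelium had a Hey2 UMI, against 0.922% and 1.53% of the other endothelium and 0.427% and 0.760% of facial-like MLPs.

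The promoters of the targets were read for the core letters that RBPJ binds. RefSeq promoters on GRCm38.p6 were searched in the 250 bases before the start site for TGGGAA on either strand (TTCCCA when read on the gene's strand), overlapping matches included. Of 32851 promoters, 7094 held it (21.6%). An entry was found for 8 members with 9 promoters, not for Hey1 and Hes1, and 1 of the 9, that of Hey2, held it. This is not a result about the members, since the share over all promoters is higher. The window of 30 bases is shown to let the motif be read in the member that has it. It is written 5′ to 3′ on the gene's strand with the motif in capitals, and the first base of the motif lies 207 bases before the start site. A match is a description of letters.
Hey2, chr10:30842973-30843002, minus strand: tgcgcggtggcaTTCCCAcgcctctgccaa

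Hes1 (chromosome 16, 30064384 to 30067796, plus strand), a repressor that keeps progenitors undifferentiated and answers to other signals as well as Notch, was detected in each of the 24 ranked groups, with means between 9.49 and 108 CPM. Endoderm had 98.4, 113, 106 and 115 CPM, and ectoderm 86.0, 88.5, 79.2 and 98.8 CPM. The aSHF had 71.9 to 80.7 CPM, the otic vesicle 38.9 to 43.9 CPM and the BrM 47.0 to 53.9 CPM, so the otic vesicle lay below the other epithelia in every library. In the endothelium Hes1 was at 79.4 and 84.8 CPM in the Rep2 arterial-like cells and at 42.3, 28.7, 40.0 and 51.5 CPM in the other endothelium. The lowest ranked group was neuronal subcluster 1, with 20.2, 11.9, 2.15 and 3.67 CPM, where Notch1 was among its highest.

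**Figure D3:**
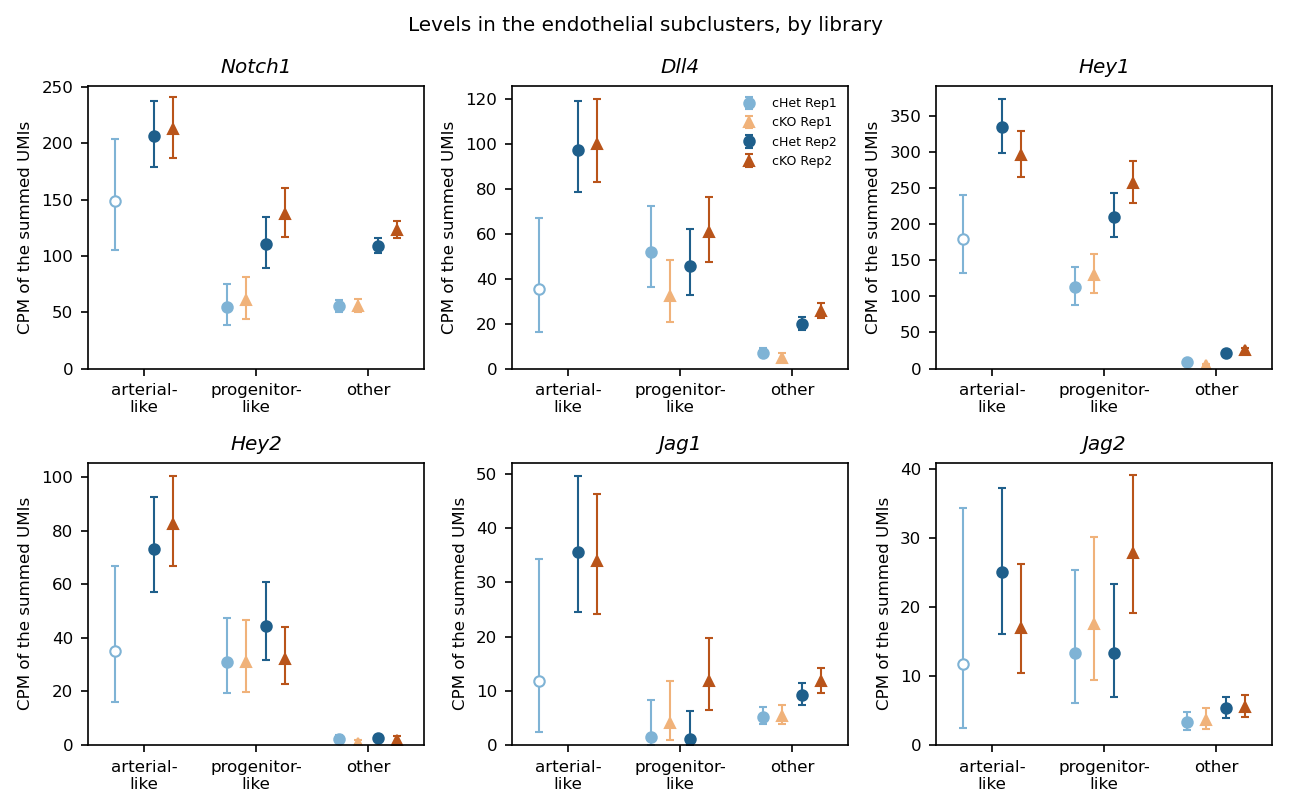
CPM of Notch1, Dll4, Hey1, Hey2, Jag1 and Jag2 (y axes, from 0) in arterial-like, progenitor-like and other endothelium (x axis), 1 point per library with an exact Poisson 95% interval that covers counting error only; the open circle is cHet Rep1 with 16 arterial-like cells, and cKO Rep1 with 2 such cells is left out. Dll4, Hey1 and Hey2 are lower in the other endothelium than in the progenitor-like cells of every library, while Notch1 is at about the same level in both.

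The endothelial subclusters were made without the pathway's genes among the variable genes, but other genes that go with them were used, so differences between subclusters are descriptions. Within each library, Hey1 and Dll4 differed between progenitor-like and other endothelium far more than Notch1 did: the Notch1 ratio was 0.988, 1.09, 1.01 and 1.11. The arterial-like cells passed 6 arterial markers (Gja5, Gja4, Efnb2, Unc5b, Mecom and Bmx), but 3 venous or endocardial markers also passed and Tbx20, Gata4 and Pdlim3 were among their leading genes. The progenitor-like cells likewise passed 3 arterial markers, and their leading genes included Hopx, Ttn, Tnni1, Rgs5 and Des, which heart muscle expresses. The arterial-like share of the endothelium was 3.69% (16 of 434 cells), 0.735% (2 of 272), 9.73% (51 of 524) and 12.0% (80 of 664).

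The genes most like each member were named from 10833 genes that reached 10 CPM in some group in every library, by Pearson's r of the mean log2(CPM + 5) over 24 groups that do not overlap. Unlike the ranked groups, these include the arterial-like endothelium (2 cells in cKO Rep1) and join neuronal subclusters 2 to 5 into 1 group. The groups share libraries and depth, and r is given as a description. Dll4 was most like Tnfaip2, Notch4 and Esm1 (r = 0.97 each), the last a gene of endothelial tip cells and Notch4 an endothelial Notch receptor. Hey1 was most like Atp13a2 (0.90), Ppp1r15a (0.87) and Hey2 (0.86), and Hey2 was most like Atp13a2, Jak2 (0.86 each) and Hey1. Notch3 was most like Smo (0.93), the signal transducer of Hedgehog, followed by Tet1 and Spaca6.

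Notch1 was most like Tmem243 (0.91), Fyn and Man1c1, and Notch2 was most like Sdc1 (0.88), Plxnb2 and Smc3. Dll1 was most like Pou3f2 and Prdm12, both neural transcription factors, and Celsr2. Jag2 was most like Rab21 (0.92), B3gnt2 and Dock8. The values of Jag1 (Tceal9, 0.81) and Hes1 (Rest, 0.79) were the lowest. Without the arterial-like endothelium, a choice made after seeing the data, Dll4 was most like Tal1 (0.98), Esm1 and Gja4, and none of the 3 genes of Hey2 remained. Between members, r was -0.75 for Notch1 with Notch3, -0.63 for Notch1 with Notch2 and 0.78 for Notch2 with Notch3.

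The comparison of cKO with cHet asks whether these genes differ when both Kmt2d alleles are floxed in this lineage. Of 17 planned groups, the 16 with at least 20 cells in each library were tested with edgeR's quasi-likelihood test and the replicate as a block (the arterial-like endothelium was not), on counts summed per library, over all genes that passed a filter on low counts. With 2 libraries per genotype, an exact permutation test of a single value cannot give a p below 0.33, so the test borrows the spread across genes. No member passed an adjusted p of 0.05 in any of the 16 groups tested. In all, 135 of 160 pairs of a member and a group passed the filter, the smallest adjusted p was 0.174, and 7 pairs (5.19%) had an unadjusted p under 0.05. Over all genes tested the same share was 5.38% of 210594 tests, of which 524 were called.

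Genes called in each group, as a share of those tested, give the background. The share was 0% in all cells together (1139 genes with an unadjusted p under 0.05 and 62 called by DESeq2), in epithelium (603 and 3), in ectoderm (464 and 0), in neuronal cells (646 and 3) and in the joined aSHF and cardiac muscle cells (728 and 1). It was 0.0782% in endoderm, 0.801% in the otic vesicle, 0.0308% in endothelium, 1.23% in the other endothelium and 0.0607% in progenitor-like endothelium. It was 0.113% in the aSHF, 0.067% in cardiac muscle, 0.207% in the pSHF, 0.379% in MLPs, 0.384% in the BrM and 0.788% in mesenchyme. The count of members called, 0 in each group, lies at this background.

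In endothelium, where progenitor-like cells held the highest ranked levels of Dll4, Jag2, Hey1 and Hey2, all 10 members were tested. The log2 fold changes ran from -0.36 (Notch3) to 0.30 (Jag1), with a median of 0.06, and every 95% interval lay within 1 log2 unit of no change. Jag1 was higher in cKO within each replicate. Its value was -0.25 without cKO Rep2, where 3 libraries cannot carry the replicate block and the gap between replicates enters the fold change, and -0.34 with a minimum of 1000 genes per cell. Notch1 was at 57.9, 56.8, 118 and 134 CPM, a log2 fold change of 0.10 with a 95% interval of -0.08 to 0.28. Dll4 was at 11.0, 8.02, 28.6 and 37.3 CPM (103, 61, 317 and 417 UMIs), lower in cKO in Rep1 and higher in Rep2. Hey1 went the same ways with 21.6, 18.0, 64.2 and 78.3 CPM.

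The share of arterial-like cells was also lower in cKO in Rep1 and higher in Rep2, and its part in these values was not tested. In progenitor-like endothelium Hey1 was higher in cKO in both replicates, with a log2 fold change of 0.25 (95% interval -0.06 to 0.55, adjusted p = 0.958). With called doublets kept and the cells clustered again, Hey1 passed the test in that group (log2 fold change 0.87, adjusted p = 0.00104). The 0.0607% of genes called there belongs to the fit as reported, and the share with doublets kept is not given here. In the other endothelium Notch3 was lower in cKO in both replicates, at 11.8, 7.47, 14.6 and 12.0 CPM from 100, 51, 135 and 106 UMIs. Its log2 fold change was -0.43 (95% interval -0.79 to -0.07, adjusted p = 0.497).

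In cardiac muscle, Hey2 had the largest difference of the pairs with an unadjusted p under 0.05. It was at 10.4, 22.5, 5.23 and 9.97 CPM, higher in cKO within each replicate, but the cHet value of Rep1 lay above the cKO value of Rep2. The log2 fold change was 1.05 (95% interval 0.43 to 1.68, adjusted p = 0.572), from 31, 28, 28 and 47 UMIs in 156, 47, 217 and 241 cells. With 1 library left out, and so without the replicate block, it lay between 0.29 (without cKO Rep1) and 1.74 (without cHet Rep1) and moved by over 1.5 times whichever of the 4 libraries was left out. After thinning, the share of cells with a Hey2 UMI was 2.56% and 14.9% in Rep1 and 2.76% and 5.39% in Rep2 (cHet and cKO), against 0.538%, 0.617%, 0.427% and 0.760% in the facial-like MLPs of the 4 libraries. Endothelial markers in these cells summed to 74.2, 97.1, 108 and 108 CPM, and their part in the value of Hey2 was not tested. In the aSHF joined with cardiac muscle, Hey2 had a log2 fold change of 0.47 (0.03 to 0.90, adjusted p = 0.938).

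Jag1 in that joint group was at 44.0, 31.1, 91.6 and 85.8 CPM, with a log2 fold change of -0.25 (adjusted p = 0.963), lower in cKO within each replicate. With cHet Rep2 or cKO Rep1 left out, and so without the block, it was 0.21 and 0.25. The cardiac muscle markers summed to 5748, 3693, 14361 and 13128 CPM there, lower in cKO in both replicates as Jag1 was, and their part in it was not tested. In cardiac muscle alone Jag1 was lower in cKO in Rep1 (77.3 and 41.7 CPM) and higher in Rep2 (126 and 137 CPM).

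Notch1 in the BrM had the smallest adjusted p of any member. It was at 7.33, 3.61, 8.43 and 5.80 CPM from 77, 42, 206 and 145 UMIs, and both cKO libraries lay below both cHet libraries. Its log2 fold change was -0.69 (95% interval -1.09 to -0.29, adjusted p = 0.174). Without the filter on low counts it passed the test (-0.67, adjusted p = 0.0176). The 0.384% of genes called in the BrM belongs to the filtered fit, and the share without the filter is not given here.

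Endothelial markers in the BrM summed to 38.6, 29.1, 41.7 and 30.8 CPM, lower in both cKO libraries as well, against 2493 to 3583 CPM in the endothelium, and their part in the value of Notch1 was not tested. Kmt2d itself was at 16.9, 12.5, 24.0 and 19.6 CPM in the BrM, with a log2 fold change of -0.32 (adjusted p = 0.45).

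In ectoderm Hey1 was higher in cKO in both replicates, at 35.8 and 39.1 CPM in Rep1 and 59.4 and 88.1 CPM in Rep2, with a log2 fold change of 0.41 (95% interval 0.12 to 0.71). Without cKO Rep2, and so without the replicate block, it was -0.069. In neuronal cells Notch2 was lower in cKO in both replicates, at 34.1 and 24.6 CPM in Rep1 and 14.4 and 8.51 CPM in Rep2 (219, 188, 59 and 33 UMIs), with a log2 fold change of -0.55 (-0.95 to -0.15). Without the block it was 0.46 when cHet Rep1 was left out and 0.10 when cKO Rep2 was. The neuronal cells differed in makeup between libraries: subcluster 3 held 88, 20, 20 and 25 of 280, 298, 178 and 201 cells, and subcluster 2 held 84, 166, 7 and 2. The part of this in the value of Notch2 was not tested.

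**Figure D4:**
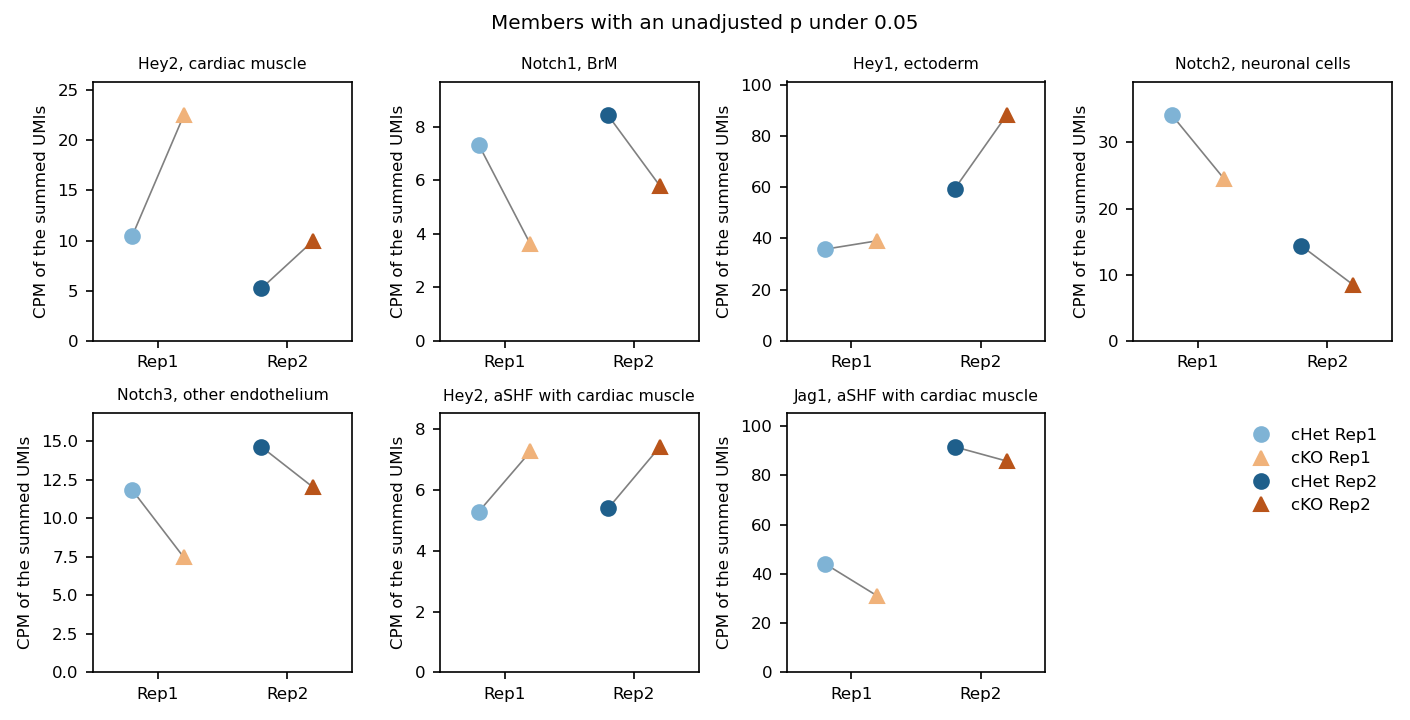
CPM (y axes, from 0) of the 7 pairs of a member and a group with an unadjusted p under 0.05, by replicate (x axis), circles for cHet and triangles for cKO joined within a replicate; none passed the adjusted threshold. Hey2 in cardiac muscle goes from 10.4 to 22.5 CPM in Rep1 and from 5.23 to 9.97 CPM in Rep2.

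In the MLPs 9 members were tested, and none had an unadjusted p under 0.05. Hey1, Hes1, Notch2 and Notch3 had log2 fold changes of 0.04 to 0.11 with 95% intervals that reached at most 0.28. Notch1 in MLPs was at 4.03, 3.08, 6.24 and 5.33 CPM, and in the pSHF at 3.31, 1.16, 3.58 and 2.88 CPM, lower in cKO within each replicate in both groups but on 5 to 129 UMIs per library.

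Of the members' 135 intervals, 114 lay within 1 log2 unit of no change, and the median distance from the estimate to the interval's bound was 0.377. For those pairs a 2-fold change lay outside the interval, and the largest change still inside it differed between pairs. The members' medians per group ran from -0.13 (otic vesicle) to 0.06 (endothelium). The 2 replicates went opposite ways in 7 of 16 groups tested for Notch1, 8 of 15 for Notch2 and 5 of 16 for Notch3. For the ligands this was 6 of 8 (Dll1), 6 of 6 (Dll4), 8 of 15 (Jag1) and 3 of 12 (Jag2). For the targets it was 10 of 16 (Hey1), 5 of 15 (Hey2) and 9 of 16 (Hes1). The same direction in both replicates was thus common and is no support by itself.

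**Figure D5:**
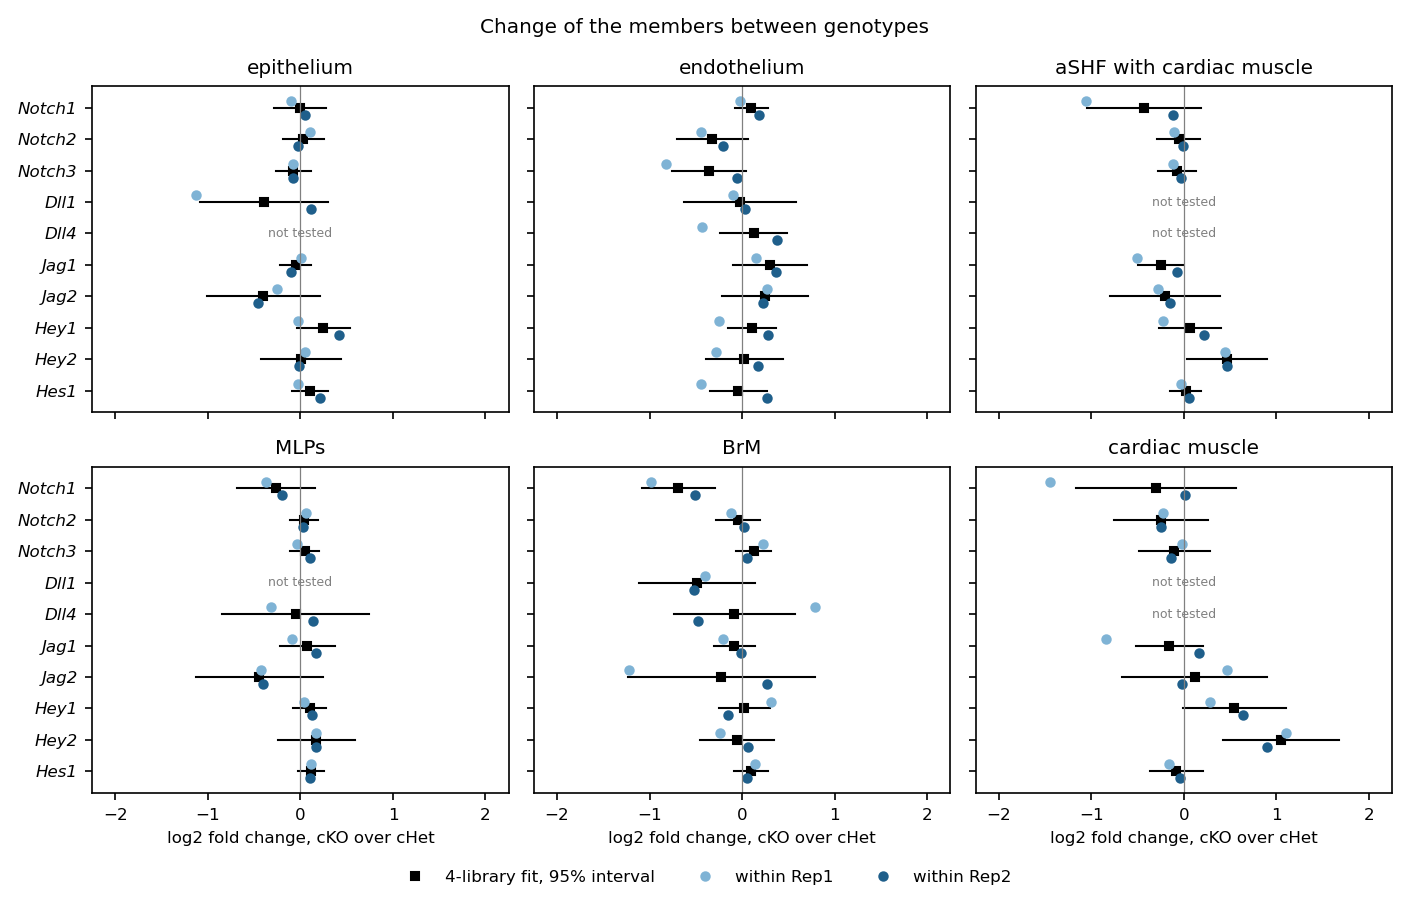
Log2 fold change of cKO over cHet (x axes) for each member (y axis) in 6 cell groups; squares are the fit of 4 libraries with its 95% interval, light points the change within Rep1 and dark points the change within Rep2. All intervals in endothelium lie within 1 unit of 0, and Notch1 in BrM and Hey2 in cardiac muscle lie to one side of 0 in both replicates.

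Whether a member's change differed between cell types was tested for the 6 pairs of epithelium, endothelium, the aSHF with cardiac muscle, and MLPs. No member passed in any pair, and the smallest adjusted p was 0.451. That was Jag1, whose change in the aSHF with cardiac muscle was 0.51 log2 units lower than in the endothelium (difference -0.51, 95% interval -0.85 to -0.17). The change of Notch1 was lower by 0.50 in the same pair (difference -0.50, adjusted p = 0.703). The share of genes called was 0.115% for the aSHF with cardiac muscle against endothelium, 0.0593% for it against epithelium and 0.0134% for endothelium against epithelium. It was 0.106% for MLPs against the aSHF with cardiac muscle, 0.693% for MLPs against endothelium and 0.825% for MLPs against epithelium.

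The rest of the pathway was covered by a list of 43 genes: other ligands, Notch4, the enzymes that ubiquitinate ligands, glycosylate and cleave receptors, the nuclear complex of RBPJ, other targets and the genes of receptor turnover. Over the 16 groups 563 of their tests were made, none was called, and 24 (4.26%) had an unadjusted p under 0.05, with a smallest adjusted p of 0.293.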

How the data were processed

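Raw UMI counts for each gene in each barcode, made by the authors with Cell Ranger, were deposited unscaled. The submitters' processing notes name Cell Ranger 8.0.1 and mm10, while the headers of the Rep1 matrices name 7.0.1. Total counts per library were 179454146 to 234726019 UMIs over all deposited barcodes, and intervals on a single library cover counting error only.

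A barcode entered the analysis if 3000 or more genes were detected and if mitochondrial and hemoglobin UMIs made up no more than 10% and 5%. Scrublet's automatic cut marked 0.080%, 0.105%, 2.01% and 1.74% of barcodes, in the order of the report. Doublets were therefore called by score at the share expected for the kit (4.99%, 5.33%, 3.90% and 5.03%). With ties at the cut included, 5.78%, 5.38%, 4.03% and 5.06% were called. Cells were clustered with scanpy 1.11.5 and leidenalg 0.10.2 at a resolution of 0.8 on 2000 variable genes, without the pathway's genes. Before each clustering the principal components were aligned between the replicates by the method of Harmony. Subclusters of the endothelium, MLPs and neuronal cells were made at a resolution of 0.3. Ambient RNA was not removed from the counts. Clusters were named where at least 3 markers were in 10% of cells and 2-fold above the other cells, except neuronal subcluster 1, which kept a number.

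UMIs were summed per library and group and tested with edgeR 4.0.16 (TMM scaling, filterByExpr, quasi-likelihood test, Benjamini-Hochberg adjustment over all genes tested, adjusted p of 0.05). The standard error was taken as the size of the log2 fold change divided by the square root of F. The replicate was the block in each fit, since the labels give each replicate its own kit; deviations of same-replicate libraries from their group means correlated at 0.638 to 0.825. On counts simulated from the endothelium (12973 genes), this fit recovered 96% of 2-fold and 100% of 4-fold changes, with 10 unchanged genes also called, and without the block 11% and 96%, with 0. Alternatives were DESeq2 1.42.0, RLE scaling, no filter, no block, each library left out, 1000 genes per cell, doublets kept, the pathway's genes kept in the clustering and cells thinned to 5000 UMIs.

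The members, the marker and pathway lists and the rules were chosen with earlier results of these data known. All 10 members and Kmt2d were named in the comparisons, and other pathway genes were counted and named only where past the threshold. Positions came from GENCODE M21 on GRCm38. The libraries are pools of embryos, so p-values rest on the spread between pools, not between single embryos. The block takes up the difference between the replicates and their kits, and the test borrows spread across genes.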

Additional observations from a re-analysis of the deposited data

How the results depend on the processing

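With 2 libraries per genotype, the number of members called was 0 in each of the 16 groups and each of the 6 cell type differences in the fit as reported, and 196 of 198 alternatives gave the same number. With doublets kept and the cells clustered again, 1 member was called in progenitor-like endothelium (Hey1), and without the filter on low counts 1 was called in the BrM (Notch1). The share of all genes called in these groups under these settings is not given here, so neither call has a background beside it. The cause was not tested. Without the replicate block, 0 members were called in every group, and 0 of all genes were called in any of the 16 groups. Leaving out each library in turn, which cannot keep the block, gave 0 members called in every group. The fits without the block are among the 198 alternatives. On counts simulated from the endothelium such a fit recovered 11% of 2-fold changes, so their count of 0 says little.

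Of the named fold changes, Jag1 in endothelium turned to -0.34 with a minimum of 1000 genes per cell and ran from -0.25 to 0.71 with a library left out. The range with a library left out was -0.069 to 0.76 for Hey1 in ectoderm, -0.94 to 0.25 for Jag1 in the aSHF with cardiac muscle and -1.71 to 0.46 for Notch2 in neuronal cells, each of which turned. Such fits cannot carry the replicate block, so the gap between replicates enters these values. All 4 of these differences had the direction reported within each replicate. They were picked from the fit with the block, which favours such agreement, so the agreement adds no support. The range with a library left out was 0.29 to 1.74 for Hey2 in cardiac muscle and -0.94 to -0.57 for Notch1 in the BrM, which kept their direction.

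The number of all genes called moved by more than 1.5 times between settings: for MLPs it was 55 as reported, 3 with DESeq2, 3 with RLE scaling and 104 without the filter, and for the other endothelium 155, 4, 153 and 141. Among the named groups of Rep2 with at least 20 cells in both libraries, neuronal subclusters and unnamed clusters left out, the group with the highest level was the same for 10 members after thinning, 8 with 1000 genes per cell, 10 with doublets kept and 9 with the pathway's genes kept in the clustering. Among these groups Dll1 was highest in ectoderm, and the stability of its level in the neuronal subclusters was not computed. With 1000 genes per cell, Dll1 fell from 13.7 to 1.73 CPM in the cells named ectoderm. Arterial-like endothelium could not be tested for want of cells in Rep1.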

Other observations

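Further pathway genes were high in single groups, and these were picked after their levels were seen. Hes5, a target gene of neural progenitors, was at 323, 319, 213 and 0 CPM (cHet Rep1, cKO Rep1, cHet Rep2, cKO Rep2) in neuronal subcluster 2, which held 7 and 2 cells in Rep2. Notch4, a receptor of endothelial cells, was at 77.3 and 65.3 CPM in the arterial-like endothelium of Rep2 and at 10.9, 9.37, 21.5 and 22.7 CPM in the other endothelium. Mfng, which glycosylates Notch receptors, was at 71.5, 74.8, 149 and 119 CPM in neuronal subcluster 1, where Dll3, a ligand that acts within the cell, was at 35.8, 21.7, 72.4 and 51.0 CPM. Lfng, a glycosyltransferase of the same family, was at 8.86, 9.23, 41.7 and 24.6 CPM in the otic vesicle. Dlk1, a ligand without the usual receptor-binding domain, was at 515, 514, 795 and 804 CPM in facial-like MLPs, and Heyl, a relative of Hey1, was at 13.1 to 15.8 CPM in an unnamed cluster led by Vtn, Cthrc1 and Sparcl1.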
